A study of Mus musculus with 2 samples.

Results

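The lipoprotein lipase system and the genes of fatty acid uptake were followed in whole omentum after ablation of Postn-expressing cells. The 10 genes were taken by symbol from a list of the lipoprotein lipase system, fatty acid transporters and fatty acid binding proteins, and all 10 were found among the 24346 gene symbols listed. RNA-seq had been performed on omentum, a visceral fat depot that carries milky spots, of a WT and a Postn-DTR group at 5 days after a single injection of diphtheria toxin (DT). The Postn-DTR mice were heterozygotes with a diphtheria toxin receptor cassette in the first coding exon of Postn, and WT mice lack it. Both genotypes received DT, so the toxin is shared by the groups. Mesenchymal cells of stomach, colon and bone also use Postn, which limits the line as a model of omental cells alone. The paper also saw an enlarged cecum in some Postn-DTR mice after DT, and does not exclude systemic effects. The part of such effects in the values below was not tested. Postn itself was at 58.3 FPKM in WT and 16.2 in Postn-DTR. The cassette sits in 1 of the Postn alleles, so the parts of cell loss and of transcript loss from that allele cannot be separated here. By flow cytometry, the paper reports efficient ablation of the Aldh1a2-expressing stromal cells of omentum after DT, and a partial loss of another stromal population. There was 1 library per genotype. The age of the animals, and whether they were pooled, were not given in the sources used here. No spread between animals could be measured, no test between genotypes was possible, and every difference below is between 2 single libraries.

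Circulating triglyceride is too large to enter a fat cell whole. Lipoprotein lipase (LPL) is secreted by the parenchymal cell, carried across the capillary wall by GPIHBP1 and anchored on the luminal face, where it releases fatty acids from chylomicrons and VLDL. ANGPTL4 inactivates LPL. The released fatty acids pass through CD36 and the SLC27A transport proteins, are bound by FABPs in the cytosol and are trapped as acyl-CoA by synthetases such as ACSL1. In white adipose tissue this route supplies much of the stored fat after a meal, and LPL, CD36, FABP4 and FABP5 are also made by macrophages.

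Levels are given as FPKM, fragments scaled by transcript length and by library size, which can be compared between genes. Changes are differences of log2(FPKM + 1), with WT subtracted from Postn-DTR, and a gene is called lower or higher when this difference reached 2-fold. Ratios are of FPKM with no pseudocount. Of the 10 genes 6 had a lower value in Postn-DTR and 4 a higher one, with a median change of -0.30 beside 0.02 over all 13127 genes compared, those whose FPKM averaged 1 or more. Fabp5 was the only one called lower and none was called higher, where 3.12% of all genes compared were lower and 3.88% higher. At 1.5-fold, 3 of the 10 genes were lower (Fabp5, Lpl and Acsl1) and 0 were higher, beside 8.84% and 9.86% of all genes. When the acinar genes described below were removed and both libraries were scaled to the same total, Lpl and Acsl1 also passed 2-fold, which gave 3 lower genes of 10 beside 5.69% of all genes. That scaling moved the median of all genes from 0.02 to -0.28, and the share of higher genes among all changed genes from 55.4% to 28.5%. Changes near the size of this shift or smaller are not separable from the choice of scaling. The change of Angptl4, for example, went from 0.31 to -0.03.

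The libraries were alike in the FPKM that 1 read is worth. In low genes the Postn-DTR value was most often 0.967 times the WT value (174 of 723 genes). If FPKM were scaled by sequenced fragments, this places the Postn-DTR library at 1.03 times the WT depth. Whole-number steps in low values then gave about 23.3 M fragments in WT and 23.8 M in Postn-DTR. These estimates, and the read counts below, rest on that scaling, which was not given, and on annotated transcript lengths. In the WT library 2.27% of all FPKM came from 25 pancreatic acinar genes, against 0.00373% in Postn-DTR. The part of this pancreatic signal in the values of the 10 genes was not tested.

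The order of the levels differed between the libraries. In WT, Fabp4 was highest, followed by Lpl, Cd36, Slc27a1, Acsl1, Fabp5, Angptl4, Gpihbp1, Slc27a4 and Vldlr. In Postn-DTR, Lpl stood behind Cd36 and Slc27a1, and Angptl4 stood ahead of Acsl1 and Fabp5. Slc27a1, Acsl1 and Fabp5 lay close together in WT (200 to 212 FPKM), as did Cd36, Slc27a1 and Lpl in Postn-DTR (236 to 244 FPKM). With single libraries the order of such neighbours has no error estimate. The 10 genes held 1.19% of all FPKM in WT and 1.14% in Postn-DTR, and Fabp4 alone made up 75.9% and 85.0% of their sum.

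**Figure D1:**
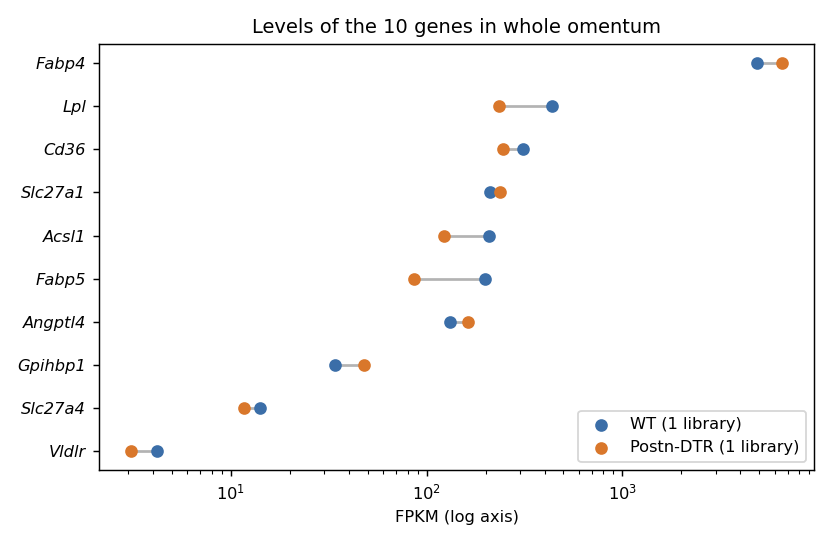
FPKM of the 10 genes in the WT library (blue) and the Postn-DTR library (orange), on a log axis, ordered by the WT value. Fabp4 lies far to the right in both, and the widest gaps are those of Fabp5 (200 and 86.3 FPKM), Lpl (439 and 236) and Acsl1 (208 and 123).

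Lipase and its partners did not share a direction. Lpl (ENSMUSG00000015568, chr8:68880491-68907448, plus strand, GRCm38), the lipase itself, was at 439 FPKM in WT and 236 in Postn-DTR. The ratio was 0.537 and the change -0.89, and 3.92% of all genes compared had a more negative change. Counting error was small at this level (ratio 0.528 to 0.546, 95% exact interval), and such intervals cover counting error only, not the difference between animals. Lpl kept a lower value under all 5 alternative pseudocounts and scalings, from -1.23 to -0.88. Stretches of 100 to 184 bases of Lpl match transcripts of 44 other genes at 95% identity or more, and Slc27a1 has such short matches to 22.

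Gpihbp1 (ENSMUSG00000022579, chr15:75596628-75599481, plus strand), the capillary anchor of the lipase, was at 34.2 FPKM in WT and 47.8 in Postn-DTR. The change was 0.47, with a range from 0.14 to 0.48 over the same settings. Its value was thus the higher one in Postn-DTR while that of the enzyme it binds was the lower one. Within the WT library there were 12.8 FPKM of Lpl for each FPKM of Gpihbp1, and within Postn-DTR 4.93, a comparison that does not depend on library scaling.

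Angptl4 (ENSMUSG00000002289, chr17:33773750-33781830, minus strand), the secreted inhibitor, had 132 FPKM in WT and 164 in Postn-DTR. Its change of 0.31 became -0.03 at equal totals. The ratio of Lpl to Angptl4 was 3.32 in WT and 1.44 in Postn-DTR. Enzyme transcript thus stood lower against both its anchor and its inhibitor in the Postn-DTR library. Vldlr (ENSMUSG00000024924, chr19:27216484-27254231, plus strand), a receptor that binds triglyceride-rich lipoproteins at the cell surface, was the least abundant of the 10 genes. It was at 4.22 FPKM and 3.10 FPKM, a change of -0.35. If all fragments came from its shortest coding transcript this rested on 24 and 21 reads, with a ratio of 0.389 to 1.38, and on 764 and 576 reads if they came from the longest. At the lower count the difference was not detectable.

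The only call among the 10 genes was a binding protein. Fabp5 (ENSMUSG00000027533, chr3:10012548-10016607, plus strand), the epidermal fatty acid binding protein, fell from 200 FPKM to 86.3, or 2.31-fold, with a change of -1.20 (counting interval of the ratio 0.408 to 0.458, from about 3614 and 1679 reads). Of all genes compared 2.12% had a more negative change. It was the only one of the 10 past 2-fold under all 5 alternative pseudocounts and scalings, from -1.54 to -1.16. The annotation holds 2 other genes, Gm6166 and Gm14328, with 409 and 408 bases at least 95% identical to Fabp5. Neither symbol is listed in these files, so reads of such copies may have been counted for Fabp5 or dropped.

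Fabp4 (ENSMUSG00000062515, chr3:10204088-10208576, minus strand), the adipocyte fatty acid binding protein aP2, had 4879 FPKM in WT and 6519 in Postn-DTR. Its change was 0.42, with a range from 0.08 to 0.42. Its rank among all 24346 genes was 2 in WT and 3 in Postn-DTR. It held 0.90% and 0.97% of all FPKM. Per FPKM of Fabp5 there were 24.4 FPKM of Fabp4 in WT and 75.5 in Postn-DTR, a 3.09-fold difference. The genes are neighbours in a family cluster on chromosome 3, with a gap of 187.5 kb between the end of Fabp5 and Fabp4. Pmp2 and Fabp9, which lie in this gap, were listed at 0 in both libraries. Fabp12, beyond Fabp4, was listed at 0 in WT and 0.0180 in Postn-DTR.

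The other family members were scarce. Fabp1, Fabp2 and Fabp6, which are used by liver and intestine, were listed at 0 in both libraries. Fabp7, the brain-type protein, rose from 3.22 FPKM to 27.9, or 8.68-fold (change 2.78), and Fabp3, the heart-type protein, from 2.25 to 7.58 FPKM (change 1.40), although with a pseudocount of 5 the change of Fabp3 was 0.79. Fabp3 has a near-identical pseudogene in the annotation and shares exonic bases with genes on the opposite strand, so its value is uncertain. Fabp4 made up 96.0% of the FPKM of the 10 family genes in WT and 98.2% in Postn-DTR. The share of Fabp5 went from 3.93% to 1.30%.

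**Figure D2:**
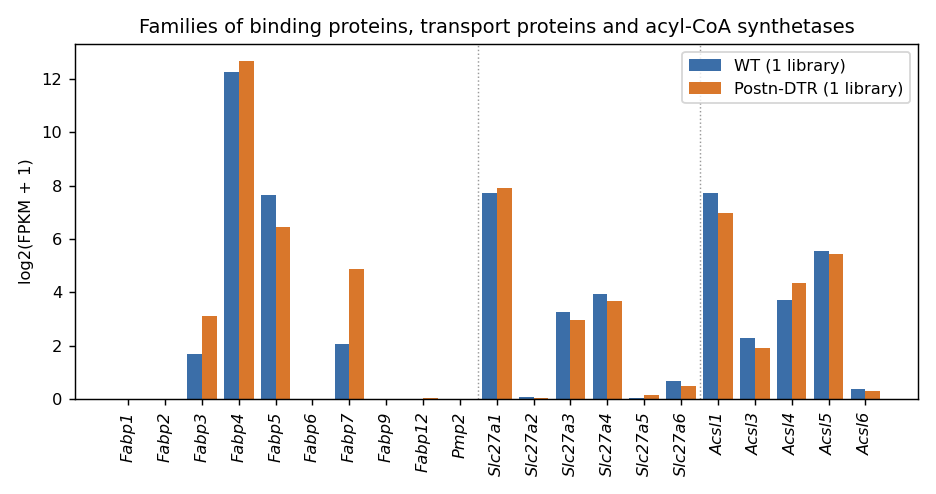
log2(FPKM + 1) of all measured fatty acid binding proteins, SLC27A transport proteins and long-chain acyl-CoA synthetases in the WT library (blue bars) and the Postn-DTR library (orange bars), with dotted lines between families. One gene dominates each family in both libraries (Fabp4, Slc27a1 and Acsl1), and Fabp5 and Fabp7 differ in opposite directions.

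Of the membrane transporters none reached 2-fold. Cd36 (ENSMUSG00000002944, chr5:17781690-17888801, minus strand), the fatty acid translocase, had 309 FPKM in WT and 244 in Postn-DTR. The change was -0.34, with a range from -0.68 to -0.33. Slc27a1 (ENSMUSG00000031808, chr8:71568882-71587302, plus strand) encodes FATP1, the insulin-responsive transport protein of fat and muscle. It was at 212 and 238 FPKM, a change of 0.17 that turned to -0.17 at equal totals. Slc27a4 (ENSMUSG00000059316, chr2:29802634-29817522, plus strand), which encodes FATP4, was at 14.2 and 11.7 FPKM, a change of -0.26.

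The 6 SLC27A genes summed to 235 FPKM in WT and 257 in Postn-DTR, of which Slc27a1 held the most in both (212 and 238). Slc27a4 held 6.03% and 4.55% of the sum, and Slc27a3 3.67% and 2.64%. The liver transporters Slc27a2 and Slc27a5 were both under 0.1 FPKM in either library. FATP1 was thus the main transcript of this family in both libraries.

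Acsl1 (ENSMUSG00000018796, chr8:46471037-46536051, plus strand), the main long-chain acyl-CoA synthetase of adipocytes, was at 208 FPKM in WT and 123 in Postn-DTR. The ratio was 0.591 and the change -0.75, with a range from -1.09 to -0.74, and 5.43% of all genes compared had a more negative change. Its exons share bases with Gm45244 on the opposite strand. Acsl5 was at 45.7 and 41.9 FPKM, and Acsl4, which prefers arachidonate, at 12.03 and 19.2. Acsl1 thus made up 77.1% of the FPKM of 5 long-chain synthetases in WT and 65.7% in Postn-DTR, while the share of Acsl4 went from 4.46% to 10.3%. Within a library, Acsl1 stood at 0.981 FPKM per FPKM of Slc27a1 in WT and 0.515 in Postn-DTR.

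**Figure D3:**
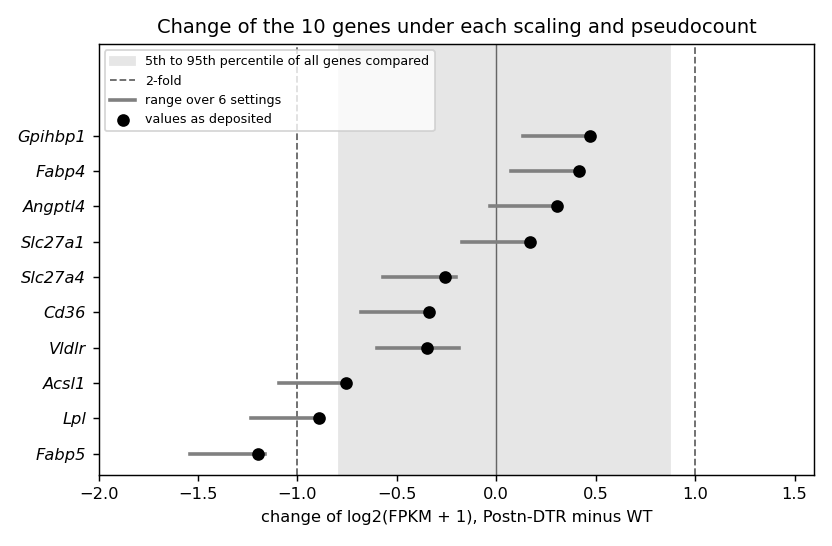
Change on the log2(FPKM + 1) scale, as Postn-DTR minus WT, for the 10 genes (black points), with the range over 6 settings of pseudocount and scaling (grey lines), the 2-fold limits (dashed) and the 5th to 95th percentile of all genes compared (-0.79 to 0.87, shaded). Fabp5 alone lies past 2-fold in all settings, Lpl and Acsl1 cross it in one, and the ranges of Angptl4 and Slc27a1 include 0.

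RefSeq start windows on GRCm38.p6 were matched for 5 of the 10 genes (Vldlr, Cd36, Slc27a1, Slc27a4 and Acsl1), with 9 annotated starts in all. Of these, Cd36 is shown because it had the highest level and Acsl1 because it had the change of largest size. Each run is the 250 bases before a transcript start, 5′ to 3′ on the strand of the gene. Capitals mark matches on either strand to AGGTCA (a hexamer bound by nuclear receptors such as PPARs), the CCAAT box, the GC box GGGCGG and the TATA box TATAAA. Overlapping matches are marked as 1 run.
Cd36, chr5:17835897-17836146, minus strand: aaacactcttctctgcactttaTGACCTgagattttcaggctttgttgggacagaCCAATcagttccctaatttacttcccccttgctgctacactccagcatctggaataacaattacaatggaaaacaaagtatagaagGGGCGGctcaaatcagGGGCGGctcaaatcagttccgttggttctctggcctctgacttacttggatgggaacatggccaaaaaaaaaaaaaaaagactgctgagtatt
Acsl1 first start, chr8:46470787-46471036, plus strand: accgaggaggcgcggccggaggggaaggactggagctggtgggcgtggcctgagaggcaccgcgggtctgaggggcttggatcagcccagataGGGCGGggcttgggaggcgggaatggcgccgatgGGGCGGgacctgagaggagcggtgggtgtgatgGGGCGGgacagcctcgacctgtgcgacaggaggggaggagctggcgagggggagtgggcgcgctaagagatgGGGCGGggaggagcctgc
Acsl1 second start, chr8:46490716-46490965, plus strand: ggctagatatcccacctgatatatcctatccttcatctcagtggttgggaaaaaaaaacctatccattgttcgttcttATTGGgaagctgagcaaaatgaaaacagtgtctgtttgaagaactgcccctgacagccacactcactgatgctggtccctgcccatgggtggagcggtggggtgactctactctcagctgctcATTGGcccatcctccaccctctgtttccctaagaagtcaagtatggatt

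The windows differ in makeup. The first Acsl1 start has 72.0% G and C and 4 GC boxes, and the second has 48.4% and 2 CCAAT boxes but no GC box. The Cd36 window has 43.2%, with 1 AGGTCA, 1 CCAAT and 2 GC boxes. Of all 32851 such windows, 14.0% hold the AGGTCA hexamer, 33.8% a CCAAT box, 32.7% a GC box and 12.4% a TATA box. The direct repeat of AGGTCA spaced by 1 base (DR1), the consensus bound by PPAR and RXR, was in 0.0335% of all windows and in none of the 9 windows of these genes. A match is a description of the letters in the window, and the FPKM values do not tell which start was used.

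Genes around the 10 were compared with the same rule, over 7 lists of lipase cofactors, receptors, transporters, synthetases and PPAR genes. Of 56 genes compared 6 were lower (10.7%) and 11 higher (19.6%), beside 3.12% and 3.88% of all genes. At equal totals 10 were lower and 8 higher, beside 5.69% and 2.27% of all genes. The 7 lists were chosen with earlier results of these data known, so shares above those of all genes are not independent support. Among genes that act on LPL, the apolipoproteins Apoc2, Apoc3 and Apoe rose. Apoc2, the obligate activator of LPL, rose from 13.6 FPKM to 128, or 9.41-fold, with a change of 3.14. Its exons overlap a same-strand gene (Gm44805) that holds near-identical sequence, so its value is uncertain. Apoc3, an inhibitor of LPL, rose from 5.28 to 24.4 FPKM (4.62-fold). Apoe, the remnant ligand made by macrophages and fat, rose from 3922 to 9479 FPKM (2.42-fold), although at equal totals its change was 0.93. Apoc1 was at 273 and 412 FPKM, and the heparan sulfate proteoglycan Sdc4 at 81.2 and 152, both within 2-fold.

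The 3 lower genes of this list were an inhibitor, a convertase and another lipase. Gm6484, which RefSeq names Angptl8, an inhibitor of LPL induced by feeding, fell from 13.9 FPKM to 2.94, or 4.73-fold. Pcsk6, a convertase that cleaves LPL and angiopoietin-like proteins, fell from 16.5 to 4.59 FPKM (3.60-fold), with exons that overlap Gm45213 on the same strand. Lipg, endothelial lipase, fell from 2.01 to 0.451 FPKM, with a change of -1.05 that was -0.36 with a pseudocount of 5. Of the 15 genes of the list 3 were lower, 3 higher and 9 within 2-fold. The LPL chaperone Lmf1 was among the last, at 16.1 and 13.2 FPKM.

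Of 6 lipoprotein receptors 1 was lower and 1 higher. Sorl1, a sorting receptor, fell from 14.0 FPKM to 3.47 (4.03-fold), with Gm16214 on the opposite strand. Lrp1, which takes up remnants, rose from 87.9 to 187 FPKM (2.13-fold), with a change of 0.74 at equal totals. Scarb1 was at 97.3 and 84.9 FPKM, and Lrpap1 at 107 and 60.6, with a change of -0.81 that was -1.15 at equal totals. Of 6 other transport proteins none reached 2-fold. Cav1, a caveolar protein of adipocytes and endothelium, was at 339 and 184 FPKM, a change of -0.88 that was -1.22 at equal totals, past 2-fold. Ptrf, which RefSeq names Cavin1, was at 280.03 and 222, and Got2, also described as a plasma membrane fatty acid binding protein, at 43.3 and 52.5 (lower at equal totals). Part of Got2 is near-identical to Gm10874 and Got2-ps1 in the annotation, so its value is uncertain. Dbi, the acyl-CoA binding protein, was at 1350.1 and 1027.

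Among 7 other acyl-CoA synthetases the acetate-activating enzyme Acss2 fell from 170 FPKM to 14.5, or 11.7-fold, and the medium-chain enzyme Acsm3 rose from 4.04 to 13.4 (3.31-fold). Acss2 and Acsm3 share exonic bases with genes on the opposite strand, and part of Acsm3 is near-identical to its neighbour Eri2, so both values are uncertain. Of the PPAR receptors and partners 1 of 7 was lower. Pparg, the adipocyte receptor whose targets include Lpl, Fabp4, Cd36 and Acsl1, fell from 59.1 FPKM to 27.3 (2.16-fold), with a change of -1.09 that was -0.99 with a pseudocount of 5. Of 10 fatty acid responsive PPAR targets 4 were higher and 0 lower, beside 3.88% and 3.12% of all genes. This list, too, was chosen with earlier results of these data known. Pdk4, which restrains glucose oxidation, rose from 14.3 to 75.9 FPKM (5.30-fold), Hilpda, an inhibitor of the lipase ATGL, from 8.11 to 37.2 (4.58-fold) and the droplet coat gene Plin2 from 167 to 390 (2.34-fold), the last with a change of 0.88 at equal totals. Acot1 rose from 1.42 to 6.85 FPKM (change 0.88 with a pseudocount of 5) but is near-identical to Acot2, so its value is uncertain. The beta-oxidation enzyme Acadvl was at 66.6 and 73.9 FPKM (lower at equal totals), within 2-fold.

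**Figure D4:**
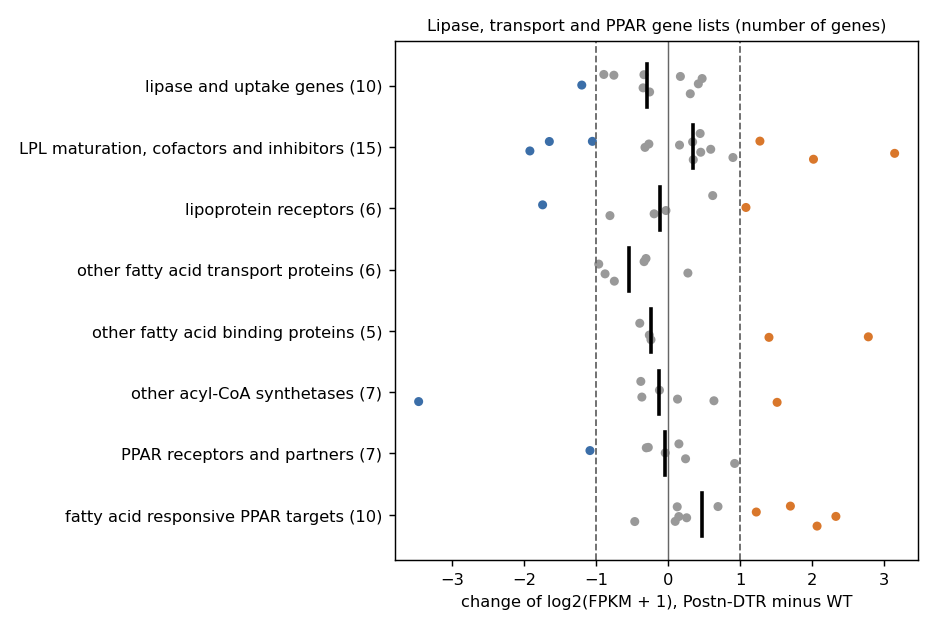
Change on the log2(FPKM + 1) scale, as Postn-DTR minus WT, for each gene compared (points, blue at least 2-fold lower, orange at least 2-fold higher, grey within), by list, with the list median (black bar) and the 2-fold limits (dashed). Of the 10 uptake genes only Fabp5 is coloured, while the lipase cofactors spread from -1.92 to 3.14 and 4 of the 10 PPAR targets are orange.

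Whole tissue was sequenced, so fewer cells of a type and less RNA per cell cannot be told apart. Markers of the cells that make these genes were therefore read beside them. The marker lists were also chosen with earlier results of these data known. Of 11 adipocyte markers 7 had a lower value in Postn-DTR and 1 (Aqp7) was called lower, where 3.12% of all genes compared were. The median change of the 11 was -0.38 (-0.72 at equal totals). Their summed FPKM was 11475 in WT and 9044 in Postn-DTR. Cfd was at 7764 and 5976 FPKM, Adipoq at 955 and 636, and Retn at 940 and 641. Plin1, at 321 and 189 FPKM, and Lipe, at 279 and 139, were also among the 7. Their ratios were 0.588 and 0.499, beside 0.537 for Lpl and 0.591 for Acsl1. Lipe was not called lower, since its change of log2(FPKM + 1) was -0.997. The other 4 had higher values, among them Cidec (513 and 592 FPKM) and Pnpla2 (362 and 495). The ratio between the libraries was therefore read against each of the 11 markers in turn, which does not depend on scaling. Lpl was lower against 9 of the 11 markers (median ratio 0.698, from 0.393 to 1.25) and Acsl1 against 8 (median 0.768, from 0.433 to 1.38). Fabp5 was lower against 10 (median 0.562, from 0.317 to 1.01). Cd36 was lower against 5 and higher against 6 (median 1.03, from 0.579 to 1.84), and Fabp4 was higher against 10 (median 1.74, from 0.978 to 3.11).

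For the capillary wall, 10 blood endothelial markers had a median change of 0.05 (a sum of 410 and 406 FPKM), a median that was -0.29 at equal totals and -0.03 with 75th percentile scaling. None of the 10 reached 2-fold. The 7 capillary markers had a median of -0.36 (-0.69 at equal totals), with Cd300lg at 33.0 and 25.5 FPKM and Rbp7 at 17.5 and 12.5. Aplnr was lower, from 15.8 to 1.85, and Car4 was the 1 marker of the 7 with a higher value, at 4.18 and 7.71. Gpihbp1 was higher against 9 of the 10 blood endothelial markers (median ratio 1.35, from 0.984 to 2.31) and against 6 of the 7 capillary markers (median 1.88, from 0.758 to 11.95). Several of the 7 were low, among them Tcf15 (2.30 and 1.71 FPKM), which gave that median, and Btnl9 (2.22 and 0.624).

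Myeloid markers had higher values. The paper's own cell counts of omentum, also at 5 days after DT, gave fewer total leukocytes in Postn-DTR and an unaltered number of macrophages. All 10 macrophage markers had a higher value and 4 were at least 2-fold higher, where 3.88% of all genes compared were. Their median was 0.91 (0.58 at equal totals), with a sum of 2957 FPKM in WT and 4946 in Postn-DTR. Lyz2 was at 2459 and 3563 FPKM, Cd68 rose from 114 to 369, and Csf1r was at 158 and 219. Of 8 markers of lipid-associated macrophages, 3 were at least 2-fold higher and none had a lower value (median 0.75, and 0.41 at equal totals). Ctsd was at 859 and 1448 FPKM. Of 5 neutrophil markers, 3 were at least 2-fold higher and none had a lower value (median 1.10, and 0.78 at equal totals), with S100a8 at 170 and 339 FPKM. Of the 4 genes named above as also made by macrophages, Fabp5 was lower, Lpl and Cd36 had lower values and Fabp4 a higher one in the library with the higher macrophage markers. Read against each of the 10 macrophage markers in turn, the ratio between the libraries ranged from 0.0632 to 0.312 for Fabp5 (median 0.225), from 0.0785 to 0.388 for Lpl (median 0.280) and from 0.116 to 0.572 for Cd36 (median 0.412). For Fabp4 it ranged from 0.195 to 0.966 (median 0.696). The lowest ratio among these markers was 1.38 (Csf1r). A gene with a smaller ratio must fall under 1 against all 10 markers, so these ranges restate the higher marker values. The 8 lymphocyte markers all had a lower value, 4 of them at least 2-fold, where 3.12% of all genes compared were. Their median was -0.89 (-1.12 at equal totals), with Cd79a at 191 and 170 FPKM. Fibroblast markers had a median of -0.19 over 7 genes (-0.53 at equal totals). Mesothelial markers had 0.27 over 5, which turned to -0.06 at equal totals. No marker of these lists was at 0 in either library, apart from acinar genes (1 of 25 at 0 in WT and 6 in Postn-DTR). The part of cell content in the values of the 10 genes was not tested.

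**Figure D5:**
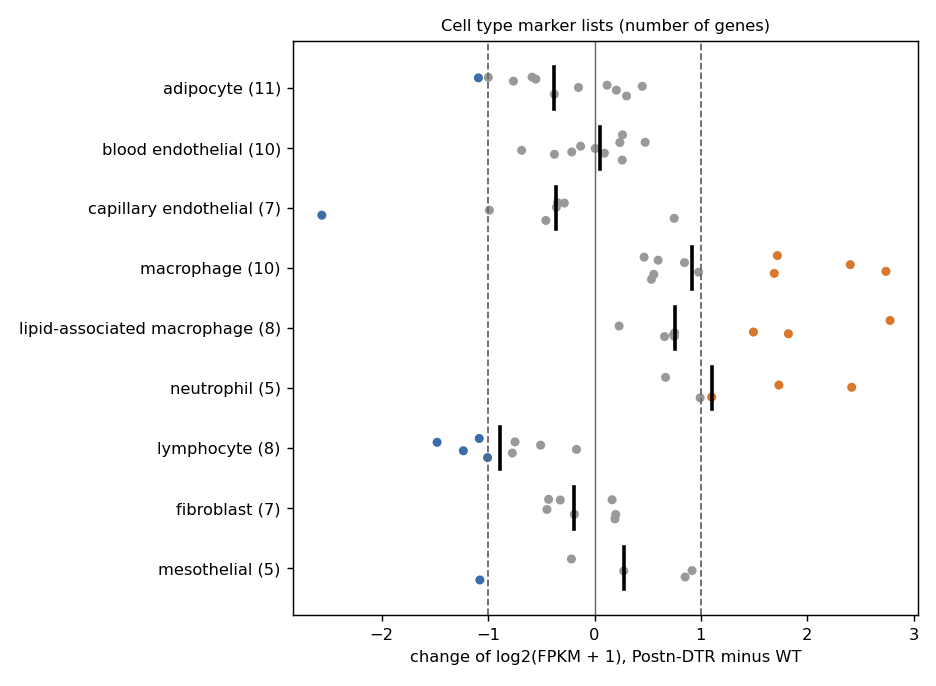
Change on the log2(FPKM + 1) scale, as Postn-DTR minus WT, for cell type marker genes (points, blue at least 2-fold lower, orange at least 2-fold higher, grey within), with the list median (black bar) and the 2-fold limits (dashed). Macrophage and neutrophil markers lie to the right, with medians of 0.91 and 1.10, lymphocyte markers to the left (-0.89), and adipocyte markers around -0.38. The acinar list is not drawn.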

How the data were processed

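Total RNA from whole omentum was extracted with a miRNeasy kit and made into stranded TruSeq mRNA libraries, per the labels. The authors deposited FPKM, 1 value per gene symbol and library. The submitters' processing notes name TopHat2 2.1.1, Bowtie2 2.2.8, SAMtools 0.1.18, Cuffdiff 2.2.1 and mm10. The annotation and the library normalization setting were not given in the sources used here, and that setting decides whether differences in total RNA remain in FPKM.

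Groups came from the genotype labels. The 10 genes, the pathway and marker lists and the alternatives were chosen with earlier results of these data known. Genes whose FPKM averaged 1 or more were compared on log2(FPKM + 1), with 2-fold as the limit and no test, since there was 1 library per genotype. Named were the 10 genes, other pathway genes past 2-fold or with an FPKM of at least 50, and up to 3 of the most abundant genes of a marker list. Postn, Acsl4, Acsl5, Slc27a2, Slc27a3, Slc27a5, the scarce Fabp genes, Lmf1, Aqp7, Plin1, Lipe, Cidec, Pnpla2, Aplnr, Car4, Tcf15 and Btnl9 were named outside this rule, after their values were seen. A pathway gene that meets the rule is not reported here. Positions, lengths and overlaps came from GENCODE M21 (GRCm38, the same assembly as mm10), where 95.7% of symbols matched. Near-identical transcripts were found with BLAST+ 2.17.0 (at least 95% identity over 100 bases). Depth was estimated from FPKM under 0.1 in genes with 1 transcript, taking FPKM as scaled by sequenced fragments. Of these values 71.3% (WT) and 68.8% (Postn-DTR) lay within 0.05 of 1 to 5 whole reads. Scripts ran in Python 3.11.15 with pandas 2.3.3, numpy 2.4.6 and scipy 1.17.1, and were tested on simulated data. Alternatives were pseudocounts of 0.1 and 5, centring, scaling to the 75th percentile, equal totals without acinar genes, other minimums and other folds.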

Additional observations from a re-analysis of the deposited data

How the results depend on the processing

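With 1 library per genotype no replicate could be left out, and no paired analysis was possible because no test could be made. Of the 10 genes 8 kept the sign of their change under all 5 alternative pseudocounts and scalings, and Angptl4 and Slc27a1 turned at equal totals without acinar genes (-0.03 and -0.17). The number of the 10 genes called lower was 1 as reported, 3 with equalised totals (Lpl, Fabp5 and Acsl1), also 3 for a 1.5-fold limit, and 0 for a 3-fold limit, and none was called higher under any setting tried. For the other pathway genes, 6 lower became 10 with equalised totals and 3 where the mean FPKM had to reach 10. For all genes, 410 lower and 509 higher became 643 lower for pseudocount 0.1, 168 and 287 for pseudocount 5, 736 and 294 with equalised totals, 173 and 303 for the mean of 10, 1160 and 1294 for the 1.5-fold limit, and 153 and 199 for the 3-fold limit. By construction, fewer genes pass a higher fold, a stricter minimum or a larger pseudocount. Equal totals lower every change because the Postn-DTR FPKM sum to more (671882 against 542190). Of the 27 other pathway genes named by rule, 2 (Got2 and Acadvl) changed sign, and 10 were past 2-fold under all 5 alternative pseudocounts and scalings. Of 18 list medians 16 kept their sign. Read estimates limit Vldlr most.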
